A study of Mus musculus with 2 samples.

Results

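Cluster 5 is a group of 515 cells among 6886 colon immune cells, chosen as every cell that the deposited metadata assign to cluster 5. Of these, 119 came from the 5XFAD library and 396 from the WT library, and each library had 3443 cells in all. 5XFAD is a transgenic model of Alzheimer disease in which mutated human transgenes, APP among them, are expressed from the neuronal Thy1 promoter, and WT mice were littermates of it. In both genotypes the mice were 9-month-old females, the colon was taken apart with a lamina propria dissociation kit, and live cells carrying CD45, the surface marker of leukocytes, were sorted. Cells of 3 mice were pooled into 1 10x Chromium library per genotype, so there are no replicates, genotype and library cannot be told apart, and no test between genotypes is possible. Intervals given below are 95% intervals that cover counting error only. Clusters 0 to 4, the B cell clusters it is set against, comprised 2245 cells in 5XFAD and 2142 in WT.

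The heat shock response is the cell's reaction to unfolded protein: heat shock factor 1 binds heat shock elements in DNA, which are arrays of GAA units in alternating orientation, and switches on chaperones such as the HSP70 pair Hspa1a and Hspa1b, the HSP110 nucleotide exchange factor Hsph1 and the HSP40 co-chaperones. Jun is a subunit of AP-1, a transcription factor made of Jun and Fos family proteins whose genes respond within minutes to many stimuli. Klf2 is a zinc finger factor that holds lymphocytes in a quiescent state and controls their trafficking. These 5 genes are the marker genes by which the cluster was described.

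The promoters of the 5 genes are shown because Hspa1a, Hspa1b and Hsph1 are classic targets of heat shock factor 1. Each is the 250 bases before the RefSeq transcription start, on GRCm38, printed along the gene's strand, and capitals mark either of the 8-base pairs of GAA units, GAANNTTC or TTCNNGAA, each of which reads the same on both strands. In the order printed they lie at chr17:34972157-34972406 (minus strand), chr17:34959239-34959488 (minus), chr5:149636337-149636586 (minus, the more upstream of 2 RefSeq starts), chr4:95052223-95052472 (minus) and chr8:72318812-72319061 (plus).
Hspa1a: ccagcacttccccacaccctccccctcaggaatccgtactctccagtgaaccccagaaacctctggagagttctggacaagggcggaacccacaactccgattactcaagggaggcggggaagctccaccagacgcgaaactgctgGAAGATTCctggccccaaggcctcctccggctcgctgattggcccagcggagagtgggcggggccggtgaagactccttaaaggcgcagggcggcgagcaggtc
Hspa1b: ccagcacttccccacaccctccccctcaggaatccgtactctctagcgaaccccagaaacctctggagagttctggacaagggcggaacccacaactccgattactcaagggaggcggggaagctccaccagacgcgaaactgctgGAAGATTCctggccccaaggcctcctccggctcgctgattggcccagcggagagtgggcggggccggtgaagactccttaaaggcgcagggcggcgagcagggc
Hsph1: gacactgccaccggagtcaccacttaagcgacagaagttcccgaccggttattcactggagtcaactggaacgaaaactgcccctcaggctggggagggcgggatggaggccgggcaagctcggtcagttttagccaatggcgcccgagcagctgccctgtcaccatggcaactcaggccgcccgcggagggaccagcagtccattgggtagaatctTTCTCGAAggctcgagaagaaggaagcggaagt
Jun: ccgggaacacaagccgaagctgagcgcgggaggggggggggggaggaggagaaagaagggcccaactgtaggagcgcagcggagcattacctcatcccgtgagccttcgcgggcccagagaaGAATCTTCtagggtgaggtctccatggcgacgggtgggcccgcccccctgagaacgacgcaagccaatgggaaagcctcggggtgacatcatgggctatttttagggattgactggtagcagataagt
Klf2: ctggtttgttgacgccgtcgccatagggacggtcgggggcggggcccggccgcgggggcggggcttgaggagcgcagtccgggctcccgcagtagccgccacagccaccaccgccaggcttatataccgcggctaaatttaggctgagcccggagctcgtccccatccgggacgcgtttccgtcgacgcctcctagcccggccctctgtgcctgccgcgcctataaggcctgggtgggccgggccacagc

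The Hspa1a and Hspa1b promoters differed at 3 of 250 bases and carried the same pair of GAA units, with its first base 104 bases before the start. Hsph1 carried 1 match 33 bases and Jun 1 match 128 bases before the start. The Klf2 window held no match, which says only that these letters are not in it. Of all 32851 promoters, 4218 (12.8%) held at least 1 of the pairs, and of the 5073 promoters of measured genes 507 (9.99%) did. Among the 68 promoters of the 44 matched genes that were at least 2-fold higher in cluster 5 in both libraries, 16 (23.5%) did, and among the 55 of them outside the heat shock lists 9 (16.4%) did. The longer array of 3 units, GAANNTTCNNGAA on either strand, which contains both pairs, was in 0 of those 68 promoters and in 153 (0.466%) of all, among them 1 each of Hspd1 and Hspe1, the mitochondrial chaperonin genes described below. A match is a description of the sequence and not a binding site.

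Hspa1a (ENSMUSG00000091971.3) lies at chr17:34969190-34972156 and Hspa1b (ENSMUSG00000090877.3) at chr17:34956436-34959238 on GRCm38, and each is a single exon in the GENCODE annotation. Their coding sequences were 99.4% identical, while the sequence after the stop codon matched over 48.0% of the aligned columns. How the counting divided reads between the pair is uncertain where a read fell in the coding sequence, so their sum is given too. Jun (chr4:95049034-95052222) is also a single exon. Hsph1 (chr5:149614287-149636376) has 18 exons and Klf2 (chr8:72319033-72321656) has 3 in their principal transcripts.

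Median depth was similar in the cells compared. Cluster 5 held 590376 UMIs in 5XFAD and 1820588 in WT, with medians of 4790 (5XFAD) and 4404 (WT) UMIs per cell, against 5111 (5XFAD) and 4862 (WT) in clusters 0 to 4. Its median of mitochondrial UMIs was 4.25% in 5XFAD and 4.51% in WT, lower than the 5.04% (5XFAD) and 5.16% (WT) of clusters 0 to 4. The gene model Gm42418, which overlaps the ribosomal RNA locus, took 1.26% of UMIs in the median 5XFAD cell of cluster 5 and 3.76% in the WT cell, and differed alike in clusters 0 to 4 (1.27% (5XFAD) and 3.93% (WT)). Its part in the results below was not tested beyond scaling without it. Of 3 cell barcodes shared by the libraries, 1 was of a cluster 5 cell. The libraries had unlike upper ends of genes per cell, 2498 in 5XFAD and 2697 in WT. Of the WT cells, 106 had 2500 or more genes, 4 of them in cluster 5. Among cells under 2500 genes, cluster 5 was 3.46% of 5XFAD and 11.7% of WT cells.

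B cell markers were found in nearly all cells of cluster 5, and the HSP70 pair in some of them. Cd79a, a chain of the B cell receptor complex, was detected in 119 of 119 cells of 5XFAD and 394 of 396 of WT, at 1909 (5XFAD) and 1746 (WT) counts per 1000000 UMIs (CPM), against 1941 (5XFAD) and 1777 (WT) CPM in clusters 0 to 4. Ms4a1, which encodes CD20, was detected in 97 (5XFAD) and 361 (WT) cells. A UMI of Hspa1a or Hspa1b was found in 31 of 119 cells of 5XFAD (26.1%, Clopper-Pearson interval 18.4 to 34.9) and in 242 of 396 cells of WT (61.1%, 56.1 to 65.9). Klf2 was detected in 111 (5XFAD) and 378 (WT) cells and Jun in 79 (5XFAD) and 352 (WT). All 5 markers were present together in 7 5XFAD cells and 64 WT cells, and none of them in 1 cell of each library. The group is called cluster 5 here, a B cell cluster led by Hspa1a, Hspa1b and Jun.

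T cell, innate lymphoid, myeloid and epithelial markers summed to at most 32.2 CPM in cluster 5. The 10 T cell markers summed to 32.2 CPM in 5XFAD and 23.1 CPM in WT, against 3335 (5XFAD) and 3130 (WT) CPM in clusters 8 to 16, and Cd4 and Cd8a were at 0 in both libraries. The 12 myeloid markers summed to 11.9 (5XFAD) and 14.8 (WT) CPM, against 6.61 (5XFAD) and 14.2 (WT) CPM in clusters 0 to 4. For the 9 innate lymphoid and NK markers the sums were 20.3 (5XFAD) and 14.3 (WT) CPM, against 8.82 (5XFAD) and 11.7 (WT) CPM. For the 10 epithelial markers they were 20.3 (5XFAD) and 7.14 (WT) CPM, against 19.7 (5XFAD) and 13.1 (WT) CPM. The 6 stromal and endothelial markers had higher sums than in clusters 0 to 4, at 67.8 (5XFAD) and 109 (WT) CPM, against 42.6 (5XFAD) and 79.4 (WT) CPM. In clusters 8 to 16 they summed to 115 (5XFAD) and 90.8 (WT) CPM. Only 1 of the 6, Pecam1, had at least 50 UMIs in cluster 5, with log2 differences of 0.56 (5XFAD) and 0.49 (WT) from clusters 0 to 4. Col1a1 and Col1a2 were at 0 in both libraries of cluster 5. The 8 plasma cell markers summed to 208 CPM in 5XFAD and 372 CPM in WT, against 162 (5XFAD) and 239 (WT) CPM in clusters 0 to 4, with Tnfrsf17 at 0 in both. Haemoglobin and mast cell genes had 0 UMIs in 5XFAD, which allows up to 3 counts, and 64 UMIs (35.2 CPM) in WT cluster 5, against 2.04 (5XFAD) and 14.3 (WT) CPM in clusters 0 to 4. The part of these transcripts in the results was not tested.

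Cluster 5 made up 3.46% of the 5XFAD library (2.87 to 4.12) and 11.5% of the WT library (10.5 to 12.6). As a share of the B cell clusters 0 to 5 it was 5.03% (4.19 to 5.99) of 2364 cells in 5XFAD and 15.6% (14.2 to 17.1) of 2538 cells in WT. The genes that lead the cluster themselves differed between the libraries, so these sizes are a description and not a change in the number of a cell type.

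The levels that set cluster 5 apart were used to form it, so they are given without a test. Hspa1a stood at 315 CPM in cluster 5 of 5XFAD and 571 CPM in that of WT, against 1.78 (5XFAD) and 29.9 (WT) CPM in clusters 0 to 4, a log2 difference of 7.47 in 5XFAD and 4.25 in WT. Hspa1b stood at 407 (5XFAD) and 602 (WT) CPM, against 2.12 (5XFAD) and 42.9 (WT) CPM, a log2 difference of 7.58 (5XFAD) and 3.81 (WT). Hsph1, which reloads HSP70 with nucleotide, stood at 139 (5XFAD) and 217 (WT) CPM, against 16.6 (5XFAD) and 60.0 (WT) CPM. Every marker was higher in cluster 5 than in each of clusters 0 to 4 of the same library.

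Jun reached 672 CPM in 5XFAD cluster 5 and 1730 CPM in WT cluster 5, and in clusters 0 to 4 it lay between 33.4 and 48.8 CPM in 5XFAD and between 85.6 and 324 CPM in WT. Klf2 was at 1536 (5XFAD) and 2128 (WT) CPM in cluster 5 and between 300.3 and 701 CPM in 5XFAD and 309 and 627 CPM in WT across clusters 0 to 4. Cluster 0 had the highest Jun, Hspa1a and Klf2 of clusters 0 to 4 in WT, whereas in 5XFAD cluster 2 had the highest Hspa1a (3.82 CPM) and Klf2.

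**Figure D1:**
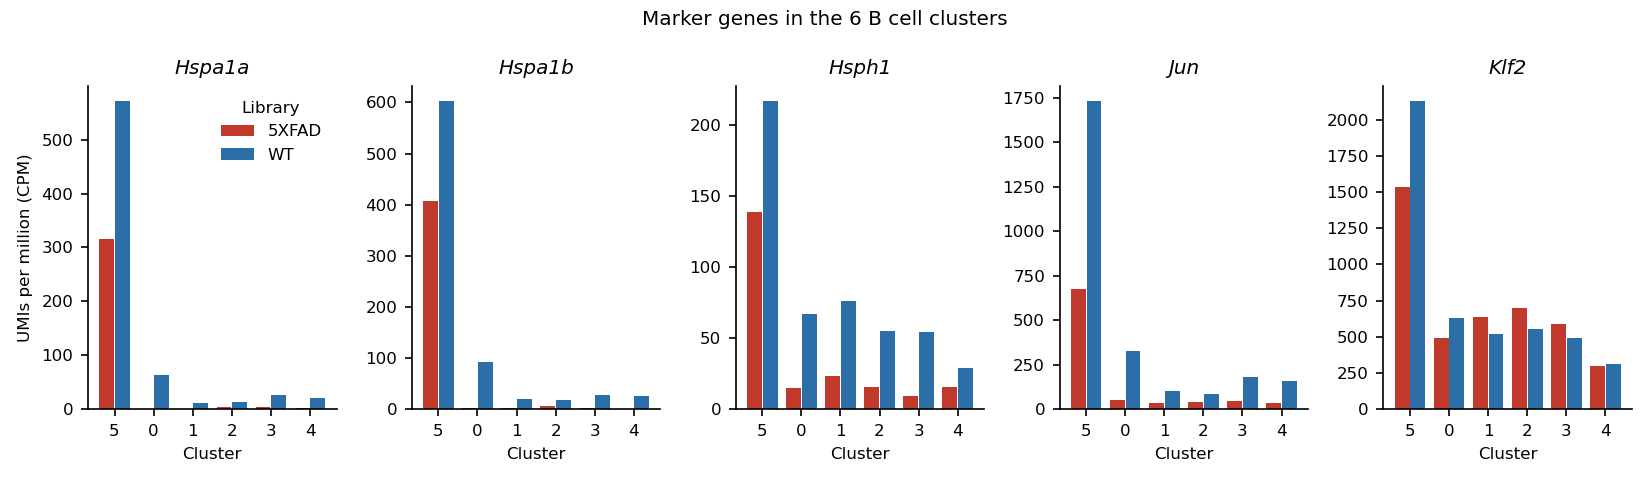
CPM (linear axis) of the 5 marker genes in cluster 5 and clusters 0 to 4, one bar for the 5XFAD and one for the WT library; there are no replicates and no error bars. The cluster 5 bars are the highest in every panel, and for Hspa1a they read 315 CPM in 5XFAD and 571 CPM in WT.

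Across the transcriptome, 153 of 4877 genes measured (3.14%) were at least 2-fold higher in cluster 5 than in clusters 0 to 4 in 5XFAD and 101 (2.07%) in WT, and 60 (1.23%) were in both libraries. At least 2-fold lower were 71 genes (1.46%) in 5XFAD and 34 (0.697%) in WT, and 6 (0.123%) in both. Since the clustering used these genes, nothing is read from these counts, nor from the list counts below, beyond what they describe. The 60 higher genes had a median of 4 exons in their principal transcript, against 9 for all genes measured with an annotation. Among them 11 (18.3%) had a single exon, against 2.27% of all, and 33 (55.0%) had at most 4 exons, against 19.0% of all.

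Besides the markers, the genes highest in cluster 5 in both libraries by the naming rule were Atf3, Fosb, Klf4, Klf6, Egr1 and Fos, most of them immediate early transcription factors. Hspb1, described below, had larger ratios but fell short of the 50 CPM that the rule asks. Atf3, a stress-induced factor related to AP-1, stood at 113 CPM in cluster 5 of 5XFAD and 84.6 CPM in that of WT, against 18.6 (5XFAD) and 13.9 (WT) CPM in clusters 0 to 4. Fosb stood at 434 (5XFAD) and 877 (WT) CPM, against 51.1 (5XFAD) and 204 (WT) CPM, and Fos at 457 (5XFAD) and 844 (WT) CPM, against 127 (5XFAD) and 239 (WT) CPM. Egr1, a zinc finger immediate early factor, stood at 234 (5XFAD) and 225 (WT) CPM, against 33.5 (5XFAD) and 56.5 (WT) CPM.

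The Krüppel-like factors Klf4 and Klf6 rounded off this group. Klf4, a relative of Klf2 that restrains B cell proliferation, stood at 247 CPM in cluster 5 of 5XFAD and 404 CPM in that of WT, against 52.0 (5XFAD) and 88.5 (WT) CPM in clusters 0 to 4. For Klf6 the levels were 605 (5XFAD) and 969 (WT) CPM, against 149 (5XFAD) and 241 (WT) CPM.

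Of the chaperone lists, the HSP70 and HSP110 list had the highest medians among those with over 1 measured member. Of 10 HSP70 and HSP110 genes 7 were measured, and 4 of them were at least 2-fold higher in both libraries, against 1.23% of all genes. They were Hspa1a, Hspa1b, Hsph1 and Hspa4l, an HSP110 relative with only 15 (5XFAD) and 58 (WT) UMIs. The list medians were 1.39 in 5XFAD and 1.09 in WT on the log2 scale, against -0.002 (5XFAD) and -0.04 (WT) for all genes measured. Hspa8, the constitutive cytosolic HSP70, stood at 986 (5XFAD) and 1241 (WT) CPM, against 466 (5XFAD) and 666 (WT) CPM, a log2 difference of 1.08 (5XFAD) and 0.90 (WT). Hspa4, another HSP110 family member, was lower in cluster 5 in both libraries (113 (5XFAD) and 118 (WT) CPM, against 168 (5XFAD) and 179 (WT) CPM).

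HSP40 proteins deliver clients to HSP70 and stimulate its ATPase. Of 8 measured, 3 were at least 2-fold higher in both libraries, against 1.23% of all genes. The list medians were 0.59 in 5XFAD and 0.34 in WT. Dnaja1 stood at 588 CPM in cluster 5 of 5XFAD and 749 CPM in that of WT, against 184 (5XFAD) and 246 (WT) CPM in clusters 0 to 4. Dnajb1, the stress-inducible HSP40, stood at 120.3 (5XFAD) and 168 (WT) CPM, against 34.0 (5XFAD) and 41.4 (WT) CPM. Dnajb4 had log2 differences of 1.79 in each library.

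The HSP90 list had medians of 0.55 in 5XFAD and 0.53 in WT. Hsp90aa1, the inducible isoform, stood at 1020 CPM in cluster 5 of 5XFAD and 1376 CPM in that of WT, against 476 (5XFAD) and 665 (WT) CPM in clusters 0 to 4. It was the 1 gene of 9 measured that was at least 2-fold higher in both, against 1.23% of all genes. Hsp90ab1, the constitutive isoform, had log2 differences of 0.26 (5XFAD) and 0.30 (WT). The small heat shock protein gene Hspb1 was detected in 4 (5XFAD) and 16 (WT) cells with 6 (5XFAD) and 44 (WT) UMIs, and its log2 differences of 4.32 (5XFAD) and 5.03 (WT) rest on those few cells.

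The mitochondrial list had medians of 0.63 in 5XFAD and 0.71 in WT, above those of the HSP40 and HSP90 lists, but 0 of its 3 measured members passed 2-fold. The mitochondrial chaperonin genes Hspd1 and Hspe1, which share a bidirectional promoter, had log2 differences of 0.77 and 0.63 in 5XFAD and 0.85 and 0.71 in WT. The 8 subunits of CCT, the cytosolic chaperonin that folds actin and tubulin, had medians of -0.07 (5XFAD) and -0.08 (WT), and 0 passed 2-fold. Of 6 nucleotide exchange and ubiquitin co-chaperones 0 passed 2-fold either. Since 1.23% of all genes were at least 2-fold higher in both libraries, 0 in lists this short is near the share of all genes. Hsf1, the transcription factor itself, stood at 30.5 (5XFAD) and 36.3 (WT) CPM, against 28.1 (5XFAD) and 38.4 (WT) CPM.

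Of 16 measured genes of the endoplasmic reticulum stress list, 0 were 2-fold higher in both libraries, and 10 were below 0 in both, with medians of -0.17 in 5XFAD and -0.57 in WT. Hsp90b1, the HSP90 of the endoplasmic reticulum, stood at 498 CPM in cluster 5 of 5XFAD and 324 CPM in that of WT, against 681 (5XFAD) and 558 (WT) CPM in clusters 0 to 4. Of 31 proteasome subunit genes, 22 were below 0 in both libraries, with medians of -0.26 (5XFAD) and -0.30 (WT). Of all 4877 genes measured, 1752 were below 0 in both, and 60 (1.23%) were at least 2-fold higher in both.

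**Figure D2:**
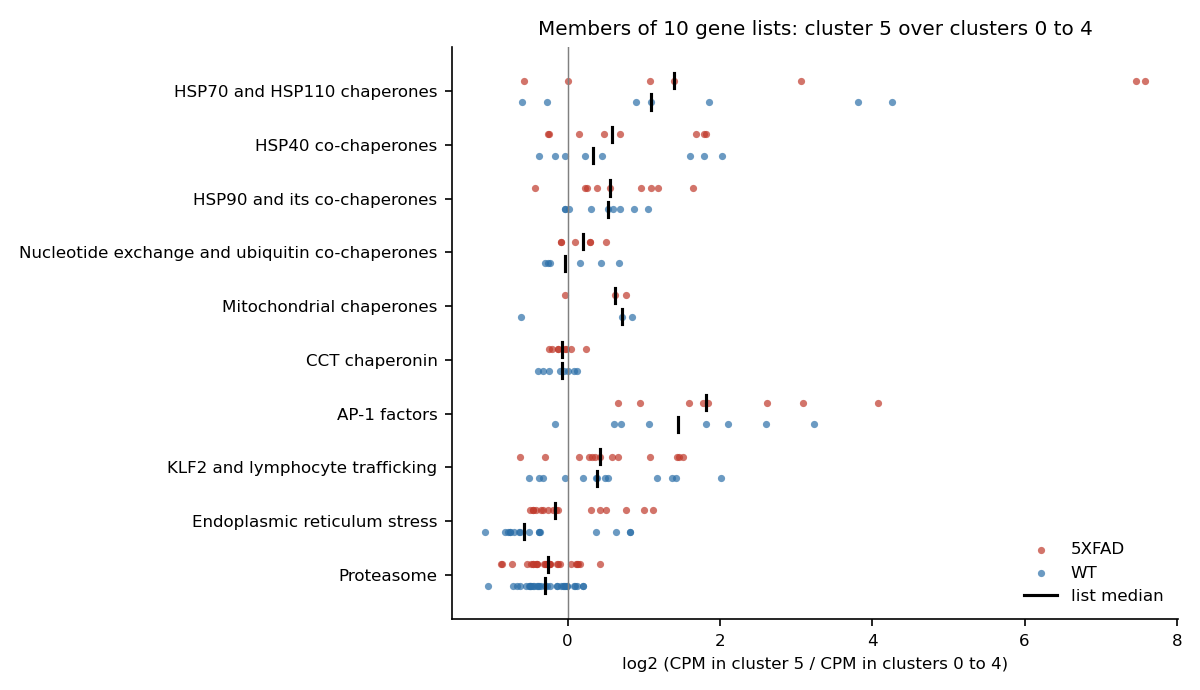
Log2 ratio of CPM in cluster 5 over CPM in clusters 0 to 4 for each measured member of 10 gene lists, in 5XFAD (upper points of each row) and WT (lower points); vertical ticks are list medians. The HSP70 and AP-1 rows reach farthest to the right, with medians of 1.39 and 1.81 in 5XFAD, and the CCT row lies at about 0.

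AP-1 subunit genes were higher in cluster 5 as a group. Of 8 measured, 5 were at least 2-fold higher in both libraries (Jun, Fos, Fosb, Jund and Atf3), against 1.23% of all genes. The medians were 1.81 in 5XFAD and 1.44 in WT. Jund stood at 3857 CPM in cluster 5 of 5XFAD and 3036 CPM in that of WT, against 1124 (5XFAD) and 1450 (WT) CPM in clusters 0 to 4. Junb differed less, at 1841 (5XFAD) and 1732 (WT) CPM, against 1167 (5XFAD) and 1067 (WT) CPM. Of 30 other immediate early genes 10 were at least 2-fold higher in both, again against 1.23% of all genes. Ppp1r15a, which recruits the phosphatase that reverses the block of translation under stress, stood at 283 (5XFAD) and 475 (WT) CPM, against 111 (5XFAD) and 152 (WT) CPM.

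Of 13 measured trafficking genes, 4 were at least 2-fold higher in both libraries, against 1.23% of all genes measured. Besides Klf2 they were Cd69, which removes the egress receptor S1PR1 from the surface, Cxcr4, a chemokine receptor for niche retention, and Gpr183, an oxysterol receptor that positions B cells. Cd69 stood at 393 CPM in cluster 5 of 5XFAD and 759 CPM in that of WT, against 137 (5XFAD) and 295 (WT) CPM in clusters 0 to 4. Cxcr4 stood at 422 (5XFAD) and 525 (WT) CPM, against 199 (5XFAD) and 232 (WT) CPM, and Gpr183 at 578 (5XFAD) and 619 (WT) CPM, against 214 (5XFAD) and 231 (WT) CPM. S1pr1, a target of KLF2, had log2 differences of 0.66 (5XFAD) and 0.52 (WT).

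Among the 10 genes lowest in cluster 5 by the naming rule were Cyth1, Pde3b and Fyn. Cyth1, which activates the ARF GTPases and controls integrin adhesion, stood at 196 CPM in cluster 5 of 5XFAD and 110 CPM in that of WT, against 437 (5XFAD) and 293 (WT) CPM in clusters 0 to 4. Pde3b, a cAMP phosphodiesterase, stood at 76.2 (5XFAD) and 39.0 (WT) CPM, against 167 (5XFAD) and 160.2 (WT) CPM. Fyn, a Src family kinase, stood at 64.4 (5XFAD) and 46.7 (WT) CPM, against 147 (5XFAD) and 95.8 (WT) CPM. The costimulatory ligand Cd86 was lower by less than 2-fold, with log2 differences of -0.90 (5XFAD) and -0.78 (WT). Nars, Knop1, Got1, Prdx6, Trim25 and Ifngr2 make up the rest, with log2 differences between -1.65 and -0.79.

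The cells of cluster 5 differed widely among themselves in HSP70. Hspa1a and Hspa1b together had 10 or more UMIs in 13 5XFAD and 90 WT cells, while 88 cells of 5XFAD (73.9%) and 154 of WT (38.9%) had none. The top 12 cells of 5XFAD held 81.5% of the pair's 426 UMIs, and 1 cell held 93. In WT the top 40 cells held 44.9% of 2136 UMIs. In clusters 0 to 4, 28 cells of 5XFAD (1.25%) and 273 of WT (12.7%) had a UMI of the pair, with a median of 1 (5XFAD) and 2 (WT) UMIs in those cells and 10 or more in 1 (5XFAD) and 8 (WT) cells.

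**Figure D3:**
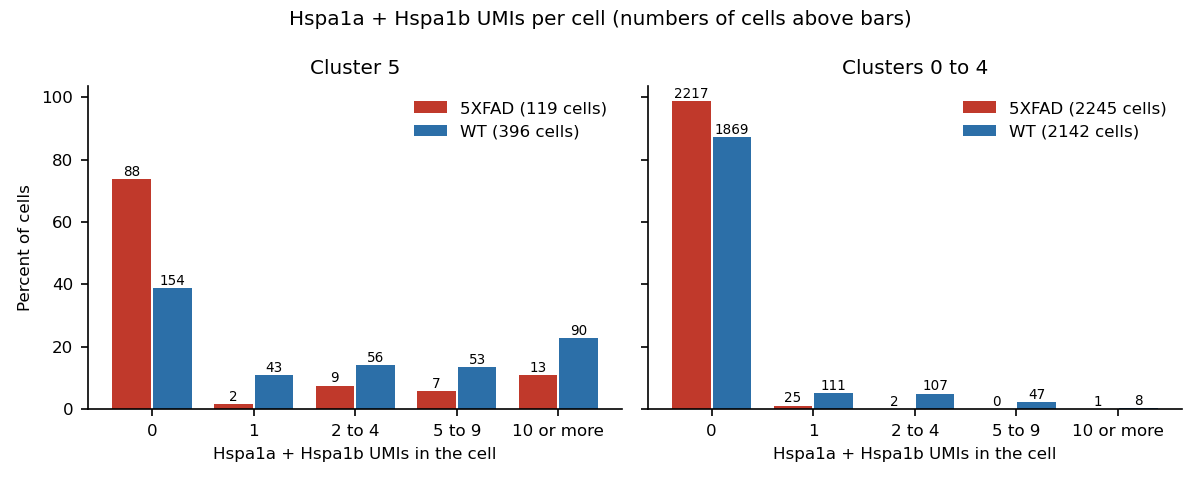
Percent of cells by the summed Hspa1a and Hspa1b UMIs of the cell, in cluster 5 (left) and clusters 0 to 4 (right), for 5XFAD and WT, with the number of cells above each bar. In cluster 5, 88 cells of 5XFAD and 154 cells of WT have no UMI of the pair, and 13 and 90 have 10 or more.

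Cluster 5 held 31 of the 59 cells of 5XFAD with a UMI of the pair in clusters 0 to 5 (52.5%) and 242 of 515 such cells of WT (47.0%). It held 90.3% of the pair's UMIs in 5XFAD and 73.0% in WT. In the percent of UMIs per cell from all heat shock lists, the cluster 5 median was 1.15% in 5XFAD and 1.26% in WT, against 0.853% (5XFAD) and 0.866% (WT) in clusters 0 to 4. For the AP-1 list it was 0.745% (5XFAD) and 0.819% (WT), against 0.231% (5XFAD) and 0.299% (WT). Clusters 8 to 16 had medians near those of cluster 5. They were 1.16% (5XFAD) and 1.11% (WT) for the heat shock lists and 0.746% (5XFAD) and 0.718% (WT) for the AP-1 list. The 10th percentile of the AP-1 share in cluster 5, 0.358% (5XFAD) and 0.348% (WT), lay above the median of clusters 0 to 4 in the same library, while that of the heat shock share, 0.844% (5XFAD) and 0.870% (WT), lay near it.

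Within cluster 5, cells with a UMI of the pair were set beside cells with neither gene. Other chaperone genes were higher in the cells with the pair. Hsph1 stood at 292 CPM in 5XFAD cells with the pair, against 84.8 CPM in 5XFAD cells without it, and at 249.5 against 167 CPM in WT cells. The cluster 5 cells without the pair still had more Hsph1 than cells without it in clusters 0 to 4, which had 16.7 CPM in 5XFAD and 55.2 CPM in WT. In cluster 5 cells without the pair Dnaja1 likewise stood at 495 (5XFAD) and 556 (WT) CPM, against 183 (5XFAD) and 231 (WT) CPM in such cells of clusters 0 to 4. Dnajb1 stood at 266 against 68.7 CPM in 5XFAD and 207 against 108 CPM in WT. Hsp90aa1 stood at 1547 against 834 CPM in 5XFAD and 1595 against 1037 CPM in WT.

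Jun was also higher in the cells with the pair, at 1410 against 412 CPM in 5XFAD and 1957 against 1379 CPM in WT. Of the other Fos and Jun family genes, those split in this way (Fos, Fosb, Junb and Jund) were not. Fos stood at 409 against 474 CPM in 5XFAD and 855 against 826 CPM in WT, with log2 differences of -0.21 (-0.64 to 0.20) and 0.05 (-0.10 to 0.20). Fosb was lower in the cells with the pair, by log2 differences of -0.50 (-0.97 to -0.05) in 5XFAD and -0.19 (-0.33 to -0.04) in WT. Jund was lower too, at 2580 against 4307 CPM in 5XFAD and 2804 against 3396 CPM in WT.

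Klf2, Gpr183, Cd69 and Atf3 had unlike splits in the libraries, a difference that was not tested. Klf2 stood at 2067 against 1349 CPM in 5XFAD, and at 2164 against 2072 CPM in WT, where the interval of the log2 difference held 0 (-0.03 to 0.16). Gpr183 had a log2 difference of 1.04 (0.71 to 1.35) in 5XFAD and -0.19 (-0.36 to -0.02) in WT. Cd69 had 0.85 (0.45 to 1.24) and -0.09 (-0.25 to 0.07), and Atf3 1.11 (0.37 to 1.85) and -0.48 (-0.96 to -0.004). The 5XFAD values rest on 31 cells with the pair and 88 without it.

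**Figure D4:**
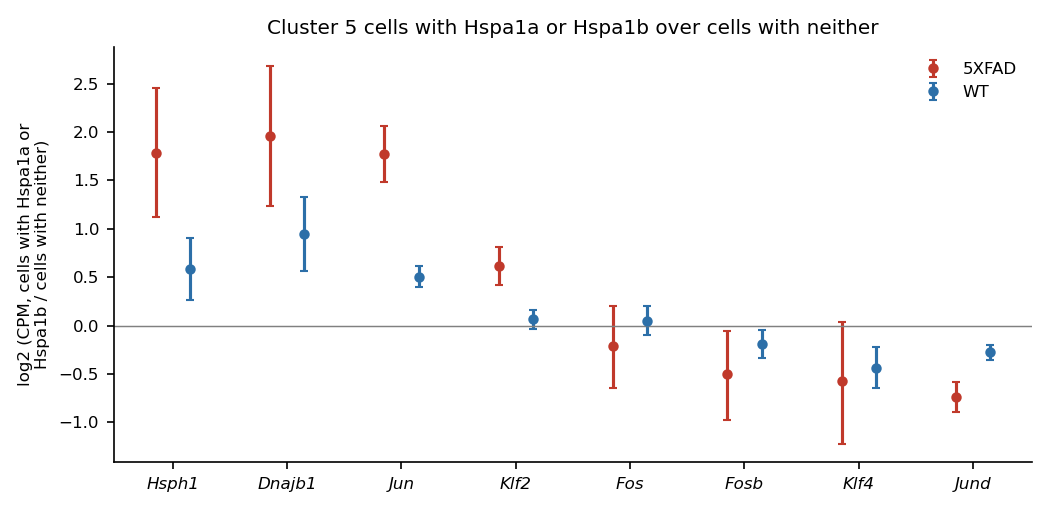
Log2 ratio of CPM in cluster 5 cells with a UMI of Hspa1a or Hspa1b over CPM in cluster 5 cells with neither, for 8 genes in 5XFAD and WT; bars are 95% intervals for counting error. Hsph1, Dnajb1 and Jun lie above 0 in both libraries, and Fosb and Jund lie below 0 in both.

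Between genotypes, the 5 markers were lower in 5XFAD cluster 5. Hspa1a and Hspa1b together stood at 722 CPM in the 5XFAD library and 1173 CPM in the WT library, a log2 ratio of -0.70 (-0.85 to -0.55), and -1.02 (-1.19 to -0.85) without the cell of each library with the most UMIs of the pair. Jun had a log2 ratio of -1.36 (-1.52 to -1.21), Hsph1 -0.64 (-1.005 to -0.30) and Klf2 -0.47 (-0.58 to -0.37). Of 4876 genes measured in cluster 5, 104 (2.13%) were at least 2-fold higher in 5XFAD and 271 (5.56%) at least 2-fold lower, with a median log2 ratio of -0.07. This split depends on the scaling, since totals without immunoglobulin, ribosomal protein and mitochondrial genes gave 153 higher and 213 lower. Of the 5 markers Jun was past 2-fold, and Hspa1a, at -0.86 (-1.09 to -0.63), passed it, among the alternatives run, only without the cell of each library with the most of its UMIs (-1.42), a cell that held 63 of 186 UMIs in 5XFAD.

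Fewer cluster 5 cells of 5XFAD had a UMI of the pair, while the median in such cells was 6 UMIs in 5XFAD and 7 in WT. In the cells with a UMI of the pair it stood at 2769 CPM in the 5XFAD library and 1931 CPM in the WT library, a log2 ratio of 0.52 (0.37 to 0.67), and 0.23 (0.06 to 0.40) without the top cell of each library. That level is pooled over cells of unlike content, since 2 of the 31 cells of 5XFAD and 43 of the 242 of WT had a single UMI of the pair, and the part of free RNA in these was not tested. Jun differed in both respects. It was detected in 66.4% of 5XFAD cells and 88.9% of WT cells, and in the cells where it was detected it stood at 1003 CPM in the 5XFAD library and 1922 CPM in the WT library.

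The shares were compared again after random thinning of every cell to a depth of 3000 UMIs, at which 2 5XFAD and 15 WT cells were too shallow to be kept. Hspa1a was then detected in 17.1% of 5XFAD cells and 41.2% of WT cells, Hspa1b in 22.2% (5XFAD) and 46.7% (WT), Hsph1 in 22.2% (5XFAD) and 35.7% (WT), Jun in 55.6% (5XFAD) and 83.7% (WT), and Klf2 in 88.0% (5XFAD) and 93.2% (WT). The order of the libraries was the same for all 5 markers as without thinning, where the shares were 19.3% (5XFAD) and 45.2% (WT) for Hspa1a, 23.5% (5XFAD) and 51.5% (WT) for Hspa1b, 32.8% (5XFAD) and 45.5% (WT) for Hsph1, 66.4% (5XFAD) and 88.9% (WT) for Jun and 93.3% (5XFAD) and 95.5% (WT) for Klf2.

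For the pair, Hsph1 and Jun the ratios were farther from 0 in clusters 0 to 4 than in cluster 5, which was not tested. The pair stood at 3.90 CPM in the 5XFAD library and 72.8 CPM in the WT library there, a log2 ratio of -4.22 (-4.68 to -3.79), and between -5.61 and -1.54 in the single clusters. In clusters 8 to 16, which hold the T and innate lymphoid cells, it stood at 192 (5XFAD) and 296 (WT) CPM, a log2 ratio of -0.62 (-0.75 to -0.50). Jun had -2.21 (-2.36 to -2.07) in clusters 0 to 4 and -0.50 (-0.60 to -0.40) in clusters 8 to 16. Free RNA in the droplets can place UMIs in cells that do not express a gene, and its part in the low levels of clusters 0 to 4 was not tested.

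Within cluster 5 the HSP70 and HSP110 list had a median log2 ratio of 5XFAD over WT of -0.33, and -0.63 in clusters 0 to 4. In cluster 5, 6 of its 7 members were below 0, against 2703 of all 4876 genes. The HSP40 and HSP90 lists had medians of -0.18 and -0.36. Dnajb4 had 66.1 CPM in 5XFAD, with 114 CPM in WT, a log2 ratio of -0.78 (-1.32 to -0.28). Hsp90aa1 had -0.43 (-0.56 to -0.30) and Hspa8 -0.33 (-0.47 to -0.20). None of the measured members of these 3 lists was 2-fold different in either direction, against 2.13% of all genes tested that were higher and 5.56% that were lower in 5XFAD.

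AP-1 members went both ways in cluster 5. Fosb stood at 434 CPM in the 5XFAD library and 877 CPM in the WT library, a log2 ratio of -1.02 (-1.21 to -0.83), and Fos had -0.88 (-1.08 to -0.70). Jund was higher in 5XFAD, by 0.35 (0.27 to 0.42), and Junb had 0.09 (-0.01 to 0.19). Mafk, a small Maf partner, stood at 54.2 (5XFAD) and 26.9 (WT) CPM with 32 (5XFAD) and 49 (WT) UMIs, a log2 ratio of 1.01 (0.32 to 1.68). The list median was 0.22 in cluster 5 and -0.39 in clusters 0 to 4.

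Most genes of the endoplasmic reticulum stress list were higher in 5XFAD cluster 5. Of 16 measured list members 13 were above 0 and 3 at least 2-fold higher, with a median of 0.58, against 0.02 for the same genes in clusters 0 to 4 and -0.07 for all genes in cluster 5. Of all 4876 genes in cluster 5, 2173 were above 0 and 2.13% at least 2-fold higher. Hspa5, which encodes the HSP70 of the endoplasmic reticulum, stood at 1179 CPM in the 5XFAD library and 812 CPM in the WT library, a log2 ratio of 0.54 (0.41 to 0.67). Dnajb11, its HSP40 partner, stood at 93.2 (5XFAD) and 36.8 (WT) CPM, a log2 ratio of 1.34 (0.80 to 1.88). Manf, a secreted stress factor, had 1.11 (0.81 to 1.40), and Xbp1, the transcription factor of the unfolded protein response, 1.01 (0.57 to 1.44).

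**Figure D5:**
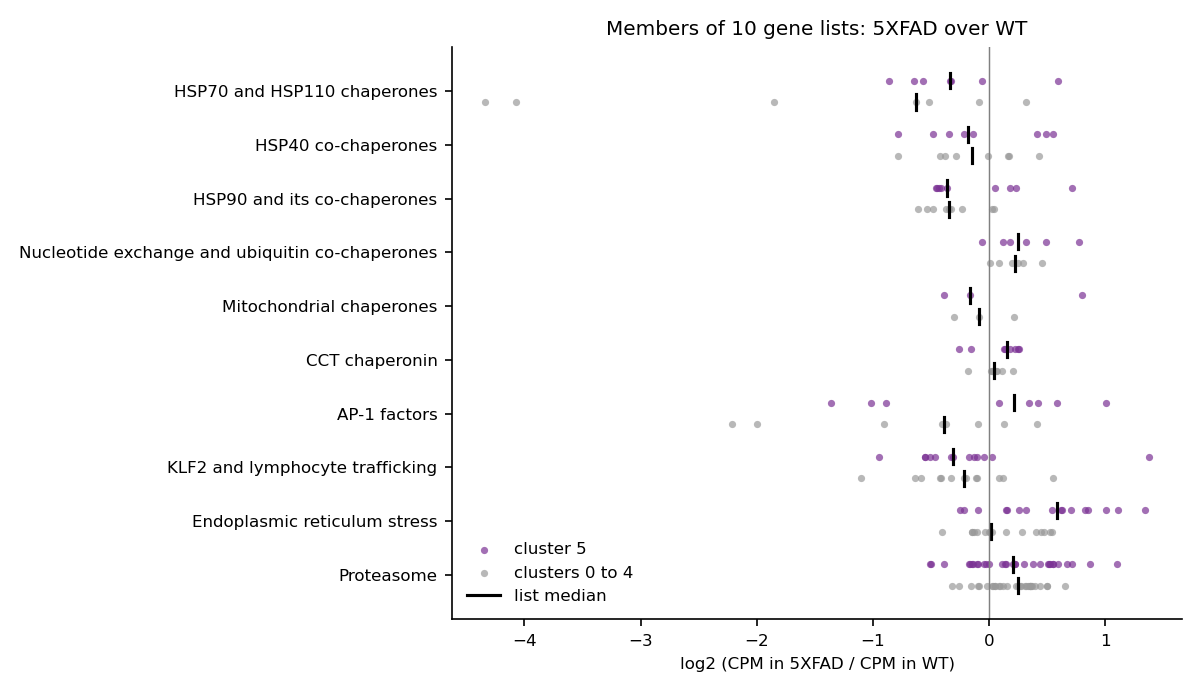
Log2 ratio of CPM in 5XFAD over CPM in WT for each measured member of 10 gene lists, in cluster 5 (upper points of each row) and clusters 0 to 4 (lower points); vertical ticks are list medians. The endoplasmic reticulum stress row has a median of 0.58 in cluster 5 and 0.02 in clusters 0 to 4, and the points at -4.34 and -4.07 in the HSP70 row are Hspa1b and Hspa1a in clusters 0 to 4.

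The trafficking list was lower in 5XFAD in 11 of 13 members, against 2703 of all 4876 genes. Its median was -0.31 in cluster 5 and -0.22 in clusters 0 to 4. Cd69 had the lowest ratio, -0.95 (-1.16 to -0.75). S1pr4, a sphingosine phosphate receptor, was at least 2-fold higher in 5XFAD, at 62.7 CPM against 24.2 CPM in WT with 37 (5XFAD) and 44 (WT) UMIs. Ccr7, a chemokine receptor for lymph node homing, had -0.33 (-0.49 to -0.17).

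The naming rule also picked genes outside these lists. Among the 10 highest in 5XFAD by the naming rule, Samsn1, an adaptor that dampens B cell activation, stood at 398 CPM in the 5XFAD library and 125 CPM in the WT library, a log2 ratio of 1.67 (1.41 to 1.94), and it had 1.15 in clusters 0 to 4. Crem, a cAMP-responsive regulator of transcription, stood at 388 (5XFAD) and 138 (WT) CPM, a log2 ratio of 1.49 (1.23 to 1.76), and it had 0.70 in clusters 0 to 4. Apoe, the lipid carrier apolipoprotein E, stood at 705 (5XFAD) and 321 (WT) CPM, a log2 ratio of 1.13 (0.95 to 1.32), and it had 0.83 in clusters 0 to 4. Dusp5, a nuclear phosphatase of ERK, had 1.54 (1.11 to 1.96) in cluster 5 and 0.55 in clusters 0 to 4. Atp5md, Rnaset2a, Stat4, Cystm1 and Prkca had log2 ratios between 1.40 and 1.60 in cluster 5 and between 0.66 and 1.34 in clusters 0 to 4.

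Among the 10 lowest in 5XFAD besides Jun, Lars2, the mitochondrial leucyl-tRNA synthetase, stood at 740.2 CPM in the 5XFAD library and 1899 CPM in the WT library, a log2 ratio of -1.36 (-1.51 to -1.22). It had -1.14 in clusters 0 to 4 and -0.97 in clusters 8 to 16, so the lower level was not particular to cluster 5 or to B cells. Tfeb, a master regulator of lysosome genes, was detected in 7 cells of 5XFAD and 79 of WT, with a log2 ratio of -2.11 (-3.46 to -1.01), and -1.46 in clusters 0 to 4. Pou2f2, the lymphoid octamer factor Oct-2, stood at 174 (5XFAD) and 403 (WT) CPM, a log2 ratio of -1.21 (-1.52 to -0.91), and -0.97 in clusters 0 to 4. Cr2, the complement receptor CD21, stood at 129 (5XFAD) and 309 (WT) CPM, a log2 ratio of -1.26 (-1.63 to -0.92), and -0.89 in clusters 0 to 4. Brwd1, Tagap, Lpgat1, Hist1h1c and Tmem245 had log2 ratios between -1.78 and -1.27 in cluster 5 and between -1.21 and -0.89 in clusters 0 to 4.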

How the data were processed

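Expression was deposited as natural log values, ln(1 + UMIs per 10000), and the deposited metadata hold each cell's total UMI count, number of genes, percent of mitochondrial UMIs and cluster number. Alignment and counting used Cell Ranger 6.0.1 with mm10, per the submitters' processing notes, and later filters are not given in the sources at hand. UMI counts were recovered from the deposited log values and totals: all 11758401 nonzero values were whole within 1e-06 and summed to the total in 6886 of 6886 cells. The library named AD in the metadata was taken to be the 5XFAD one, since the other is WT. No doublets were removed here.

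UMIs were summed per cluster and library and scaled to CPM by the cluster total. Ratios carry exact conditional binomial intervals and shares Clopper-Pearson intervals. A count of 0 is taken as at most 3. Genes with at least 50 UMIs in cluster 5 over both libraries (against clusters 0 to 4, also those with 50 CPM there) were measured, and "2-fold" is the only call. The intervals were tested only on simulated counts drawn with counting error alone, so that test says nothing of the spread among cells. Named genes are the 5 markers, the 10 highest and 10 lowest of each comparison by the interval bound nearest no change, and list members; not eligible were variable segments, ribosomal, mitochondrial and sex-linked genes and Gm and Rik models. Some genes that the rule names are not reported here. The members, gene lists and rules were chosen with earlier results of these data known. Alternatives changed the scaling, the minimum, the depth, the cells and the top cell. Coordinates are GENCODE and promoters RefSeq, both on GRCm38. Python 3.11.15, numpy 2.4.6, scipy 1.17.1 and pandas 2.3.3 were used.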

Additional observations from a re-analysis of the deposited data

Results flagged for a closer look

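Of 245 measured genes in the lists or named, 3 had a 5XFAD over WT ratio in cluster 5 whose interval lay on the opposite side of 0 from the interval in clusters 0 to 4; among all 4876 genes measured 39 did. The difference between the ratios was not tested. In each case the signs of both ratios held under the 4 scalings tried, whose values carry no intervals.

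Klf2 had a log2 ratio of -0.47 (-0.58 to -0.37) in cluster 5 and 0.09 (0.04 to 0.14) in clusters 0 to 4. Of those, cluster 0 had -0.36 and clusters 1, 2 and 3 had 0.29, 0.35 and 0.26. Over clusters 0 to 4 the Klf2 ratio came closest to 0 with totals without Gm42418 (0.05). Jund had 0.35 (0.27 to 0.42) in cluster 5 and -0.37 (-0.40 to -0.33) in clusters 0 to 4. Hspa5 had 0.54 (0.41 to 0.67) in cluster 5 and -0.15 (-0.19 to -0.11) in clusters 0 to 4, where it came closest to 0 with the median of ratios (-0.04).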

How the results depend on the processing

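Of 3266 values of gene ratios under alternatives, 3192 kept their sign, and 35 were counted as moved by over 1.5 times. That count leaves out some larger moves. Hspa13, 5XFAD over WT in cluster 5, went from -1.96 to 0.48 with cells thinned to 3000 UMIs. Clpb went from -1.83 to -0.11 without its top cell. The cause was not tested. Malat1, 5XFAD over WT in cluster 5, was the 1 value counted as reversed, though others changed sign. It went to 0.036 with totals that leave out immunoglobulin, ribosomal protein and mitochondrial genes. The counts of genes past 2-fold moved by over 1.5 times when fewer or more genes were admitted or a cell was left out. Without the top cell of each gene, 412 genes were lower in 5XFAD and 13 lower in cluster 5 in both libraries. With a minimum of 20 UMIs, 250 genes were higher and 681 lower in 5XFAD, and 91 were higher and 19 lower in cluster 5 in both libraries. With no minimum these were 1158, 1052, 858 and 88. Median-of-ratios scaling moved the median gene by 0.06 and gave 76 higher and 323 lower in 5XFAD, totals without immunoglobulin, ribosomal protein and mitochondrial genes gave 153 and 213, and totals without Gm42418, an alternative chosen after seeing the data, gave 92 higher and 299 lower in 5XFAD. The share of cluster 5 among clusters 0 to 5 was 5.03% in 5XFAD and 15.6% in WT. No paired analysis was possible because each genotype is 1 pooled library. The 119 cells of 5XFAD limit the precision of every 5XFAD value.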

Other observations

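The interferon response list was higher in cluster 5 than in clusters 0 to 4 and lower in 5XFAD than in WT. All 10 measured members were above 0 against clusters 0 to 4 in both libraries, as were 1522 of all 4877 genes. In 5XFAD, leaving out the top cell of the gene in each group took Ifi213 from 0.54 to -0.23 and Ddx58 from 0.05 to -0.33. The list medians were 0.55 in 5XFAD and 0.56 in WT. In 5XFAD over WT within cluster 5, 9 of 10 were below 0, against 2703 of all 4876 genes, with a list median of -0.51. In clusters 0 to 4 likewise 9 of 10 were below 0, against 3047 of all 4876 genes, with a list median of -0.78. Ifi203, a nuclear protein of the HIN-200 family, was the 1 member at least 2-fold higher in both, as were 1.23% of all genes. It had 186 CPM in 5XFAD cluster 5 and 260.4 CPM in WT cluster 5, against 76.2 (5XFAD) and 128 (WT) CPM in clusters 0 to 4. Ciita, the master activator of MHC class II genes, stood at 159 (5XFAD) and 295 (WT) CPM, against 44.2 (5XFAD) and 149 (WT) CPM, while the medians of the 12 class II list genes were -0.12 (5XFAD) and -0.09 (WT). Its 5XFAD over WT log2 ratio was -0.89 (-1.22 to -0.57) in cluster 5 and -1.75 in clusters 0 to 4.

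Of 18 B cell identity genes 0 were past 2-fold between cluster 5 and clusters 0 to 4 in both libraries. That is near the share of all genes, of which 1.23% were higher and 0.123% lower in both. The list medians were 0.08 in 5XFAD and 0.24 in WT. In both libraries 12 of the 18 were above 0 and 3 below, against 1522 above and 1752 below of all 4877 genes. In 5XFAD over WT within cluster 5, 15 of 18 were below 0, against 2703 of all 4876 genes. The list median of that ratio was -0.50 in cluster 5 and -0.41 in clusters 0 to 4. Cd22, an inhibitory receptor of B cells, stood at 122 CPM in the 5XFAD library and 271 CPM in the WT library, a log2 ratio of -1.15 (-1.53 to -0.79), and -1.14 in clusters 0 to 4. Ighd, the heavy chain of IgD, stood at 317 (5XFAD) and 649.8 (WT) CPM, a log2 ratio of -1.04 (-1.27 to -0.81), and -0.67 in clusters 0 to 4. Pmaip1, a BH3-only activator of apoptosis, was the 1 of 6 measured p53 targets at least 2-fold higher in cluster 5 in both libraries, at 117 (5XFAD) and 97.2 (WT) CPM, against 37.6 (5XFAD) and 30.3 (WT) CPM in clusters 0 to 4. Of 11 NF-kB feedback genes 0 were, and of 7 oxidative stress genes 0 were. Of all 4877 genes 1.23% were, so 0 in lists this short is near the share of all genes. The NF-kB list medians were 0.40 in 5XFAD and 0.03 in WT.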
